A study of Homo sapiens with 6 samples.

Results

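The transcripts of 10 core circadian clock genes (PER1, PER2, PER3, CRY1, CRY2, CLOCK, ARNTL, NR1D1, NR1D2 and DBP) were followed in 786-O cells, an established line of clear cell renal cell carcinoma. The genes were chosen by name, as the 10 of 56303 genes in the count table that carry these symbols, and ARNTL is the older symbol of BMAL1. The 3 siNFE2L3 libraries came from 786-O cells in which NFE2L3, a CNC family transcription factor, was knocked down with small interfering RNA, and carry a time label of 48 h. The 3 siControl libraries came from 786-O cells with a control siRNA, carry the genotype label WT and a time label of 0 h. The genotype label of siNFE2L3 replicates 2 and 3 reads NFE2L4 and NFE2L5, while their titles and source name give NFE2L3, so they were taken as NFE2L3 knockdown. Which NFE2L3 siRNA was used, whether the libraries came from separate cultures, and the hour of day or the last medium change before harvest are not stated in the sources consulted. As siRNA and time label change together, their effects cannot be told apart in any comparison. The spread among the 3 libraries of a group, on which all p-values rest, may be technical.

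The mammalian clock is a loop of transcription that closes about once a day. CLOCK and ARNTL pair on E-boxes, short DNA motifs, and switch on PER, CRY, NR1D and DBP genes. PER and CRY proteins then return to the nucleus and inhibit the CLOCK and ARNTL pair, while NR1D1 and NR1D2 (REV-ERB alpha and beta) repress ARNTL through ROR elements. DBP acts on D-boxes in other clock and output genes. Cultured cells keep such loops, but the cells of a dish drift out of phase unless a medium change, serum or a glucocorticoid sets them together.

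The total counts were 55586867, 56806368 and 51828446 in the siNFE2L3 libraries and 53051297, 57391929 and 55338187 in the siControl libraries. NFE2L3 had 1087, 1075 and 1068 reads in the siNFE2L3 libraries, against 6171, 6508 and 6403 reads in the siControl libraries, which is 17.2% of the siControl level. Of 8 renal carcinoma markers, 7 were above 1 CPM (reads scaled to library size) in every library, and CA9 had 0 to 6 reads. The summed level of the 8 markers was 2414 to 2505 CPM in siNFE2L3 libraries and 2705 to 2762 CPM in siControl libraries. VIM was its largest part (means of 1262 CPM after knockdown and 1349 CPM in controls). PAX8, CDH2, KRT8 and KRT18 were lower at an edgeR adjusted p under 0.05. EPAS1 was higher (edgeR adjusted p = 0.0155), and PAX2 and VIM did not pass. The part of these markers in the results below was not tested. Of 5 haematopoietic markers only CD68 was above 1 CPM in every library, and HBB had 0 reads throughout. CD68 was abundant, with means of 118 CPM after knockdown and 132 CPM in controls, and was lower (log2 fold change -0.17, edgeR adjusted p = 0.0136). None of 4 endothelial markers was above 1 CPM in every library, and CDH5 had 0 reads throughout. Replicates of a group differed by more than sampling noise in every pair (chi-square over its degrees of freedom 3.996 to 7.55), so none was a copy of another.

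All 10 clock genes passed the filter on low counts, and 6 of them were lower after NFE2L3 knockdown at an adjusted p under 0.05 in edgeR's quasi-likelihood test. The 6 were PER1, PER2, PER3, CLOCK, NR1D1 and NR1D2. They stood at 58.2% to 84.6% of their siControl level. The count of clock genes that were higher was 0, and it was also 0 at an unadjusted p under 0.05 and with DESeq2 or limma-voom. Of all 19916 tested genes, 14% were lower and 12.7% higher by the same rule. CRY1, CRY2, ARNTL and DBP did not pass. The median log2 fold change of the 10 was -0.27, against -0.00066 over all tested genes, and 8 estimates were below 0. In 7 of the 10 genes every siNFE2L3 library was below every siControl library, which held for 20.4% of tested genes. None of the 10 reached a 2-fold difference, the cutoff used by the study together with an unadjusted p under 0.05, which 0.377% of tested genes passed on the lower side. In bulk libraries, fewer cells with a transcript and less transcript in each cell cannot be told apart.

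**Figure D1:**
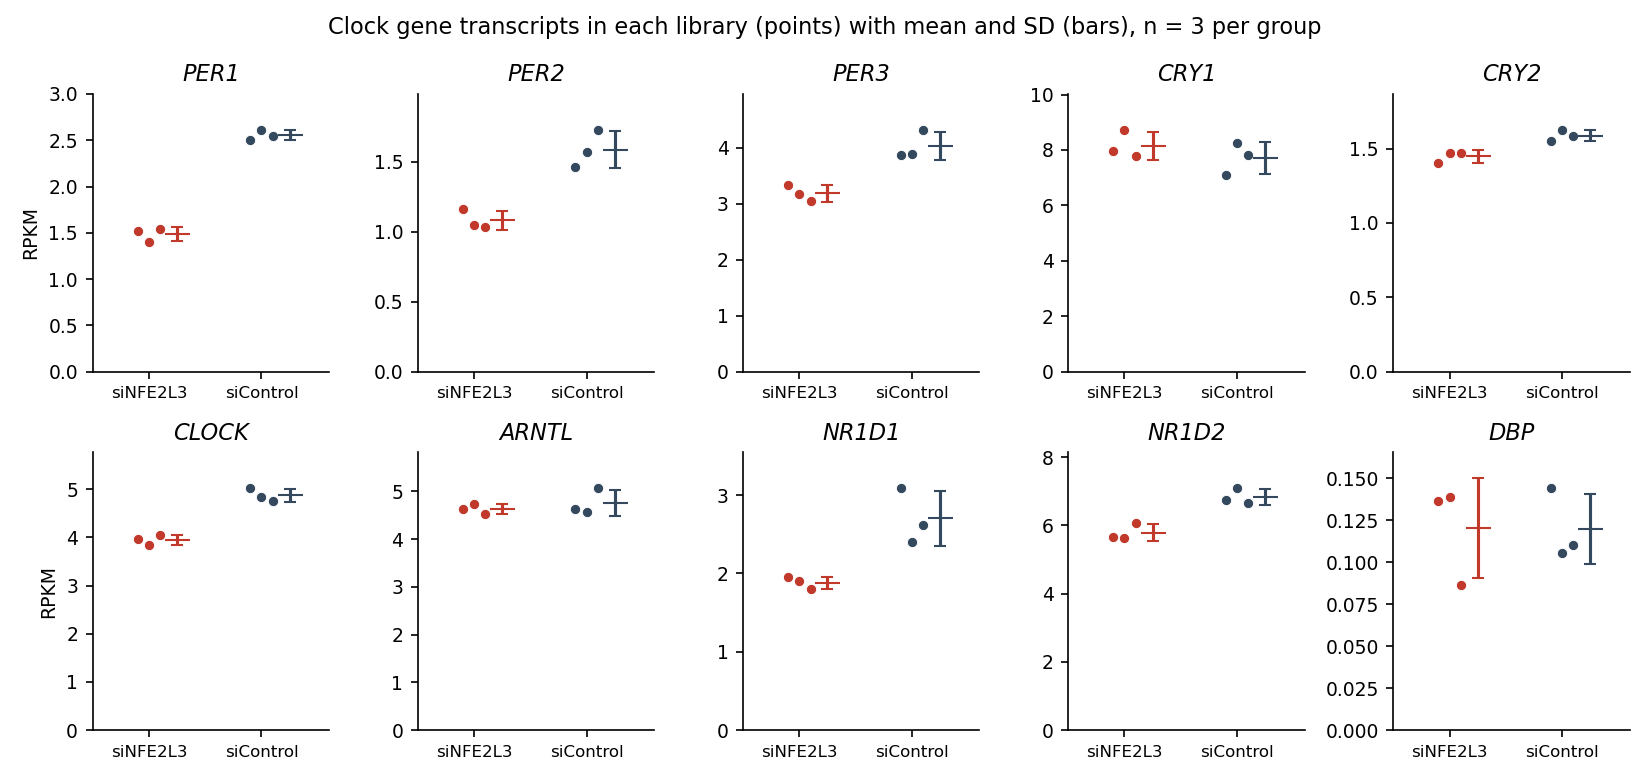
Level of each clock gene in RPKM (reads per exon length and library size, vertical axes from 0, each with its own scale) in the 3 siNFE2L3 libraries (left, red) and the 3 siControl libraries (right, dark). Points are libraries and bars the mean and SD. PER1, PER2, PER3, CRY2, CLOCK, NR1D1 and NR1D2 show no overlap between the groups, while CRY1, ARNTL and DBP overlap.

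By level per exon length, CRY1 was the highest of the 10 in both groups, with 8.15 ± 0.506 RPKM in siNFE2L3 libraries and 7.72 ± 0.578 RPKM in siControl libraries (SD, n = 3 each). NR1D2 was next in both groups, with 5.79 ± 0.242 RPKM after knockdown and 6.83 ± 0.225 RPKM in controls. DBP was the lowest, with 0.121 ± 0.0297 RPKM after knockdown and 0.12 ± 0.021 RPKM in controls. Averaged over the 6 libraries, CRY1 stood at percentile 73.7 of tested genes and DBP at percentile 5.92. In the siNFE2L3 libraries ARNTL (4.63 ± 0.103 RPKM) stood above CLOCK (3.95 ± 0.106 RPKM) with no overlap. In the siControl libraries CLOCK (4.88 ± 0.132 RPKM) and ARNTL (4.76 ± 0.269 RPKM) overlapped. PER3 followed in both groups, at 3.19 ± 0.15 RPKM after knockdown and 4.03 ± 0.251 RPKM in controls. Neighbours in the lower part of the order that could not be separated by their ranges were PER1 with CRY2 after knockdown, and NR1D1 with PER1 and CRY2 with PER2 in controls.

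The 3 PER genes encode the rate-setting repressors of the loop, and all 3 fell after knockdown. PER1 (chr17:8140472-8156506, GRCh38, minus strand), which is induced early by glucocorticoids and cAMP, had the largest change of the 10. PER1 had 594, 552 and 554 reads in the siNFE2L3 libraries, against 930, 1058 and 990 reads in the siControl libraries. These are 10.6, 9.82 and 10.8 CPM after knockdown and 17.5, 18.3 and 17.8 CPM in controls. The groups were far apart, and the libraries of a group lay within 1.1-fold of each other. The log2 fold change of PER1 was -0.78 (SE 0.0678, 95% interval -0.92 to -0.64, edgeR adjusted p = 3.81e-09).

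PER2 (chr2:238244038-238290102, minus strand) encodes a PER protein whose loss shortens the period in mice. It had 446, 405 and 366 reads after knockdown, against 534, 623 and 660 reads in controls. Its level was 7.98, 7.21 and 7.12 CPM in siNFE2L3 libraries and 10.1, 10.8 and 11.9 CPM in siControl libraries. Every siNFE2L3 library was below the lowest control, and the log2 fold change was -0.55 (SE 0.0852, 95% interval -0.73 to -0.38, edgeR adjusted p = 2.10e-05). PER3 (chr1:7784320-7845177, plus strand), which is dispensable for rhythm in mice, had the highest level per exon length of the PER genes. It had 1512, 1447 and 1265 reads after knockdown, against 1666, 1824 and 1943 reads in controls. The highest siNFE2L3 library (27.1 CPM) lay below the lowest siControl library (31.4 CPM), and PER3 stood at 79.1% of control (log2 fold change -0.34, SE 0.0573, edgeR adjusted p = 6.92e-05). Summed over the 3 genes, PER transcripts came to 6.02, 5.63 and 5.62 RPKM in siNFE2L3 libraries and 7.85, 8.07 and 8.60 RPKM in siControl libraries.

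The promoters of PER1 and PER2, the PER genes with the largest falls, are shown because E-box sites near the start of these genes are a textbook target of CLOCK and ARNTL. Each run is 300 bases, 250 before the RefSeq transcription start and 50 from it on, read 5′ to 3′ on the strand of the gene (GRCh38.p14). Capitals in PER1 (chr17:8152355-8152654, minus strand) mark the E-box CACGTG, which reads the same on both strands, 173 bases before the start. Capitals in PER2 (chr2:238288561-238288860, minus strand) mark a variant of the E-box, CACGTT, which reads as AACGTG on the other strand and is called E-prime here, 197 bases before the start.
PER1: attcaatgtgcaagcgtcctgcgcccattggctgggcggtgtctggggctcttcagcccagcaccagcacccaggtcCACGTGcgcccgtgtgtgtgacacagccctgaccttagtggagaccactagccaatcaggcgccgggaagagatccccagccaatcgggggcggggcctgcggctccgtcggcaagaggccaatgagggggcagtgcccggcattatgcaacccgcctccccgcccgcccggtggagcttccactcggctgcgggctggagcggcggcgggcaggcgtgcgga
PER2: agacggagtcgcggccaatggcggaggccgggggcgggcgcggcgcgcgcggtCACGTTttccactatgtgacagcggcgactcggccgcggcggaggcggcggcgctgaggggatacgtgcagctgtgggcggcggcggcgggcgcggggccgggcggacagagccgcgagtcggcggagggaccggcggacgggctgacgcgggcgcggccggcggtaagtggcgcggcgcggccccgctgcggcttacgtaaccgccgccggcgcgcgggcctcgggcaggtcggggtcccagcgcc

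CRY1 and CRY2 encode the cryptochromes, the PER partners that block the CLOCK and ARNTL pair most strongly, and neither passed the test. CRY1 (chr12:106991364-107093829, minus strand) had 2254, 2483 and 2020 reads after knockdown, against 1906, 2411 and 2202 reads in controls. The 39.3 to 44.2 CPM of the siNFE2L3 libraries overlapped the 35.9 to 41.7 CPM of the siControl libraries. The log2 fold change of CRY1 was 0.08 (95% interval -0.04 to 0.20, edgeR adjusted p = 0.346), an interval that leaves out a fall of the size seen in any of the 3 PER genes. CRY2 (chr11:45847118-45883248, plus strand) had 485, 513 and 468 reads after knockdown, against 511, 583 and 545 reads in controls. All siNFE2L3 libraries (8.68, 9.13 and 9.11 CPM) were below all siControl libraries (9.63, 10.1 and 9.82 CPM), by a small margin. The log2 fold change of CRY2 was -0.13 (95% interval -0.29 to 0.02, edgeR adjusted p = 0.215). An exact two-sided permutation test over the 6 libraries gave p = 0.1 for CRY2 and for each of the 6 called clock genes. This is the smallest value that 3 against 3 libraries allow, and any gene without overlap reaches it.

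CLOCK and ARNTL encode the activating pair, and only CLOCK passed the test. CLOCK (chr4:55427903-55547138, minus strand) had 2603, 2535 and 2445 reads after knockdown, against 3133, 3295 and 3110 reads in controls. Its 46.6, 45.1 and 47.6 CPM in siNFE2L3 libraries lay well below the 59.1, 57.0 and 56.0 CPM of the siControl libraries. CLOCK stood at 80.9% of control (log2 fold change -0.31, SE 0.0458, 95% interval -0.40 to -0.21, edgeR adjusted p = 1.48e-05). ARNTL (chr11:13276652-13387266, plus strand), the partner without which the loop stops in mice, had 1738, 1792 and 1567 reads after knockdown, against 1656, 1777 and 1892 reads in controls. Its 30.5 to 31.9 CPM in siNFE2L3 libraries overlapped the 30.7 to 34.1 CPM of the siControl libraries. The log2 fold change of ARNTL was -0.04 (95% interval -0.15 to 0.07, edgeR adjusted p = 0.657).

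NR1D1 and NR1D2 encode the haem-binding repressors REV-ERB alpha and beta, and both fell. NR1D1 (chr17:40092787-40100725, minus strand) had 302, 296 and 256 reads after knockdown, against 454, 385 and 404 reads in controls. Its level was 5.40, 5.27 and 4.98 CPM in siNFE2L3 libraries and 8.56, 6.66 and 7.28 CPM in siControl libraries, where replicate 1 was the highest. NR1D1 stood at 69.7% of control (log2 fold change -0.52, SE 0.102, 95% interval -0.73 to -0.31, edgeR adjusted p = 0.000368). NR1D2 (chr3:23945260-23980618, plus strand) had 1844, 1839 and 1813 reads after knockdown, against 2086, 2385 and 2151 reads in controls. No siNFE2L3 library (33.0, 32.7 and 35.3 CPM) reached a siControl library (39.3, 41.2 and 38.7 CPM). NR1D2 stood at 84.6% of control (log2 fold change -0.24, SE 0.051, 95% interval -0.35 to -0.14, edgeR adjusted p = 0.000824), the smallest of the 6 falls.

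The promoters of both are shown as the counterpart to those of the PER genes, since CLOCK and ARNTL also drive the NR1D genes. Capitals in NR1D1 (chr17:40100540-40100839, minus strand) mark an E-prime match, AACGTG, that begins 168 bases before the start. Capitals in NR1D2 (chr3:23945871-23946170, plus strand, the second of 2 annotated starts) mark a D-box, TTACATAA (TTATGTAA on the other strand), that begins 194 bases before the start, and E-boxes at 155 and 105 bases before it.
NR1D1: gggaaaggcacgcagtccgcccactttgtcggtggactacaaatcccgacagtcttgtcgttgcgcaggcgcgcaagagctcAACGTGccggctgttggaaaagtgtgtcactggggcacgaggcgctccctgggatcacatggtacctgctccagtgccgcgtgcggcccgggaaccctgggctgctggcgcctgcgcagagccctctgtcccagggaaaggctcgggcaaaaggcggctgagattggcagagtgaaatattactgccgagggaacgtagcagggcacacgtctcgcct
NR1D2: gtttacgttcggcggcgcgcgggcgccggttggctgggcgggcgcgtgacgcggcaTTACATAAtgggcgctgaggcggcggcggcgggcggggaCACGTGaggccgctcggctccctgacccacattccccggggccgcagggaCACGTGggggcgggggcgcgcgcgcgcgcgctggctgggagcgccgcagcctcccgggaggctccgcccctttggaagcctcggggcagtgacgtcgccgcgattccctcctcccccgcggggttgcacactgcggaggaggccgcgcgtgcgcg

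DBP (chr19:48630030-48637438, minus strand), an activator at D-boxes and one of the most strongly cycling transcripts of liver and kidney in mice, was barely detected. It had 50, 51 and 29 reads in the siNFE2L3 libraries, against 50, 40 and 40 reads in the siControl libraries. The groups overlapped and the lowest library was siNFE2L3 replicate 3. The log2 fold change of DBP was 0.02 (SE 0.262, 95% interval -0.52 to 0.56, edgeR adjusted p = 0.975), so a change of the size of that of NR1D1 or PER3 in either direction was not detectable at this depth. The RPKM of DBP is spread over the 6544 exon bases that the table counts for it in 2 blocks.

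**Figure D2:**
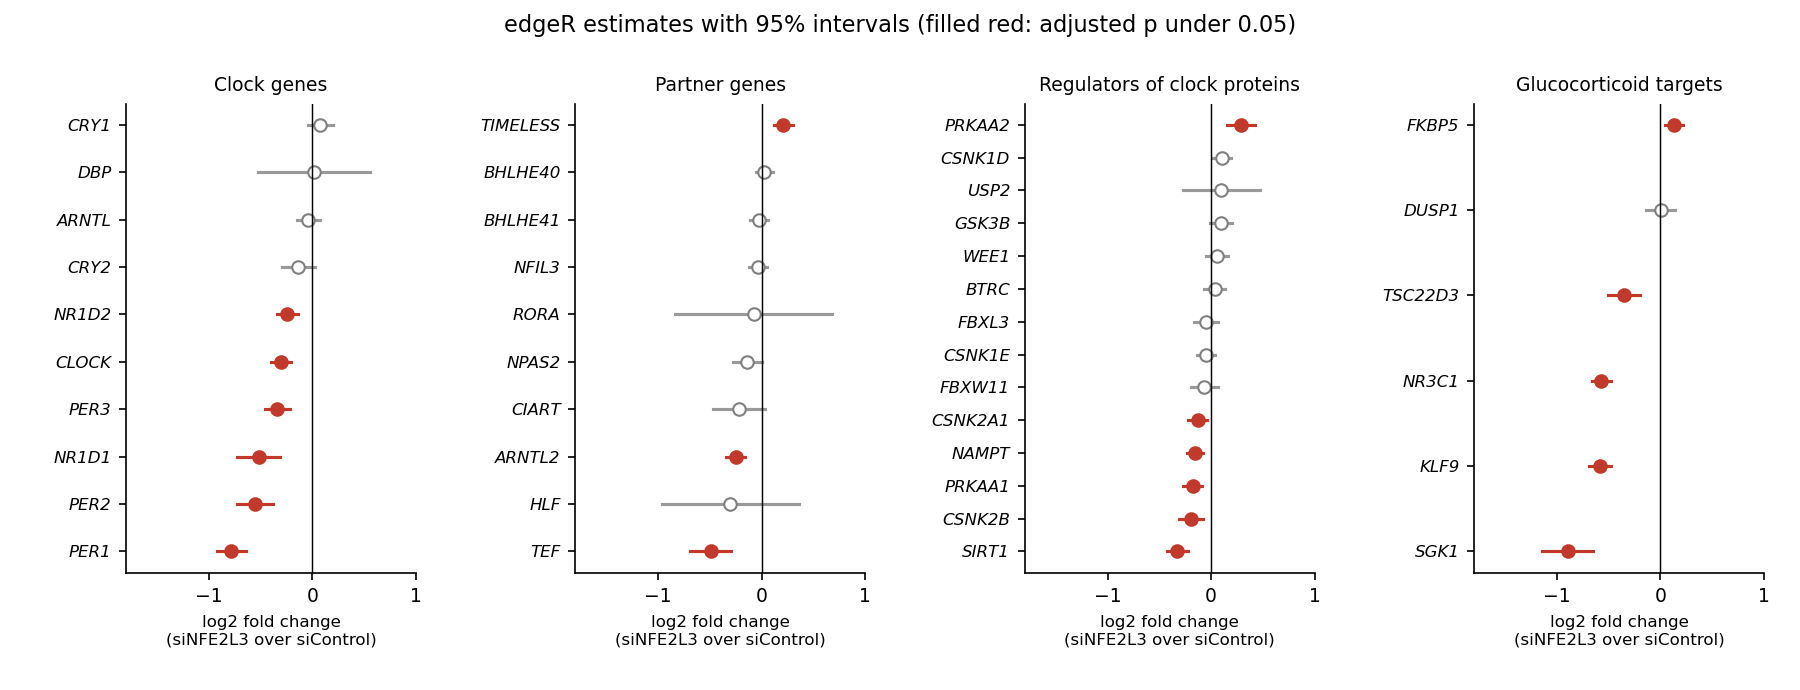
Log2 fold change of siNFE2L3 over siControl (horizontal axis) with 95% intervals for the tested clock genes, clock partner genes, regulators of clock proteins and glucocorticoid-related genes. Filled red points passed an adjusted p under 0.05 in edgeR. The 6 called clock genes run from -0.78 for PER1 to -0.24 for NR1D2, and the widest interval of the clock genes belongs to DBP.

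The balance between clock genes within a library does not depend on how libraries are scaled, and it was described for pairs chosen after the values were seen, with no test. CLOCK had 1.50, 1.41 and 1.56 reads per ARNTL read in siNFE2L3 libraries and 1.89, 1.85 and 1.64 in siControl libraries. PER1 had 0.264, 0.222 and 0.274 reads per CRY1 read after knockdown and 0.488, 0.439 and 0.450 in controls. NR1D1 had 0.174, 0.165 and 0.163 reads per ARNTL read after knockdown and 0.274, 0.217 and 0.214 in controls. In these 3 pairs the groups did not overlap. The same was seen for PER2 and PER3 per CRY1 read. Each of these pairs sets a gene called lower over one that did not pass, so the ratios repeat the differences of the single genes. How often ratios of other gene pairs stand apart between the groups was not counted. NR1D2 had 1.06, 1.03 and 1.16 reads per ARNTL read after knockdown and 1.26, 1.34 and 1.14 in controls, where the groups overlapped. Between 2 genes of 1 family, the ratio of PER1 to PER2 and that of NR1D1 to NR1D2 overlapped between the groups, while PER1 had 0.393, 0.381 and 0.438 reads per PER3 read after knockdown and 0.558, 0.580 and 0.510 in controls.

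**Figure D3:**
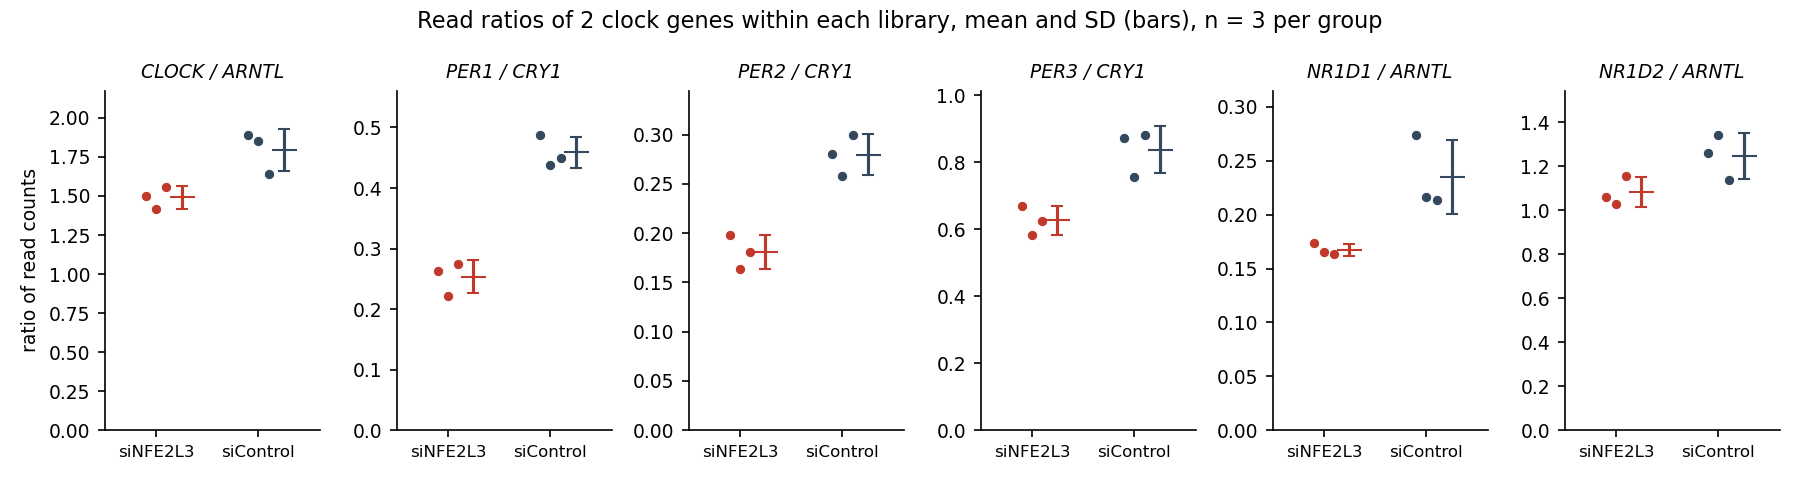
Ratio of the read counts of 2 clock genes within a library (vertical axes from 0) for 6 of the pairs. Red points (left) are the 3 siNFE2L3 libraries, dark points (right) the 3 siControl libraries, and bars the mean and SD. The groups stand apart for CLOCK per ARNTL, the PER genes per CRY1 and NR1D1 per ARNTL, and overlap for NR1D2 per ARNTL.

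Among the 10 genes, the ratio of highest to lowest library was largest for DBP, at 1.61 times after knockdown and 1.36 times in controls. NR1D1 was next in controls, at 1.29 times, against 1.08 times after knockdown. The median SD of log2(CPM + 0.5) over the 10 genes was 0.0628 in siNFE2L3 libraries and 0.0831 in siControl libraries, against 0.0775 and 0.0869 over all tested genes. The SD of NR1D1 on this scale was 0.0545 after knockdown and 0.172 in controls. That of DBP was 0.229 after knockdown and 0.150 in controls, so on this scale NR1D1 was the most spread in controls. The 0.5 added is large beside the 0.692 to 0.943 CPM of DBP in controls and narrows its spread. By the ratio of highest to lowest library DBP was the most spread in controls.

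Genes on the opposite strand share exon bases with several clock genes, and no source says whether reads were counted by strand, so some reads may belong to the neighbour. Of the exon bases of PER3, 16.7% are shared, with UTS2 and RP3-467L1.4. NR1D1 shares 9.49% with THRA, a thyroid hormone receptor gene that itself had a log2 fold change of -0.16 (edgeR adjusted p = 0.0196). DBP shares 10.1% with SPHK2. PER2 shares 2.73% with the antisense gene AC096574.4, which averaged 82 reads after knockdown and 135 reads in controls (log2 fold change -0.69, edgeR adjusted p = 0.00423). PER1, CRY1 and CLOCK share under 2% with other genes, and CRY2, ARNTL and NR1D2 share none.

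Among all 10 genes, with 15 RefSeq promoter windows, 2 had an E-box (PER1 and NR1D2), against 8.78% of 27305 genes. After the sequences were seen, the E-prime box was added, and 5 genes had it (PER2, CRY1, CRY2, CLOCK and NR1D1), against 6.44% of genes. A D-box was found in PER3 and NR1D2, against 1.13% of genes. A ROR element, NNTAGGTCA (TGACCTANN on the other strand), was found in CRY2 and ARNTL, against 2.27% of genes, and the cAMP element TGACGTCA in none, against 2.25%. A loose pattern for the core of the antioxidant element, TGANNNNGC (GCNNNNTCA on the other strand) with any base at N, was also searched. It was found in 7 of the 10 and in 47.1% of all genes. A match to this pattern need not be the element itself, which CNC factors bind with small MAF partners. In PER2, CRY2 and NR1D2 an antioxidant core overlapped an E-prime box or E-box by 2 bases. Another core in CRY2 overlapped the ROR element by 2 bases. How often such overlaps occur over all promoters was not counted. The shares of genes with a match come from 35116 windows of all genes. They were not adjusted for the number of windows per gene or for the share of G and C bases. A match is no evidence of binding.

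The E-prime matches of genes that did and did not pass the test are set side by side in 30-base stretches with the motif in capitals, because CLOCK fell while CRY1 and CRY2 did not pass. They lie at chr4:55546102-55546131 (CLOCK, minus strand), chr12:107093621-107093650 (CRY1, minus strand) and chr11:45847275-45847304 (CRY2, plus strand).
CLOCK: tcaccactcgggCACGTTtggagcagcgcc
CRY1: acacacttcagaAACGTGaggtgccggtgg
CRY2: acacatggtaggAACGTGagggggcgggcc

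The D-box of PER3 (chr1:7784102-7784131, plus strand) and the ROR element of ARNTL (chr11:13277806-13277835, plus strand), which the NR1D proteins compete for with ROR factors, are shown in the same way. The ROR element of ARNTL lies 29 bases past the start of the first of its 2 windows.
PER3: cgagcccgcgcgTTATGTAAcgcgccccgg
ARNTL: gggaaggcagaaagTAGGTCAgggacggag

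**Figure D4:**
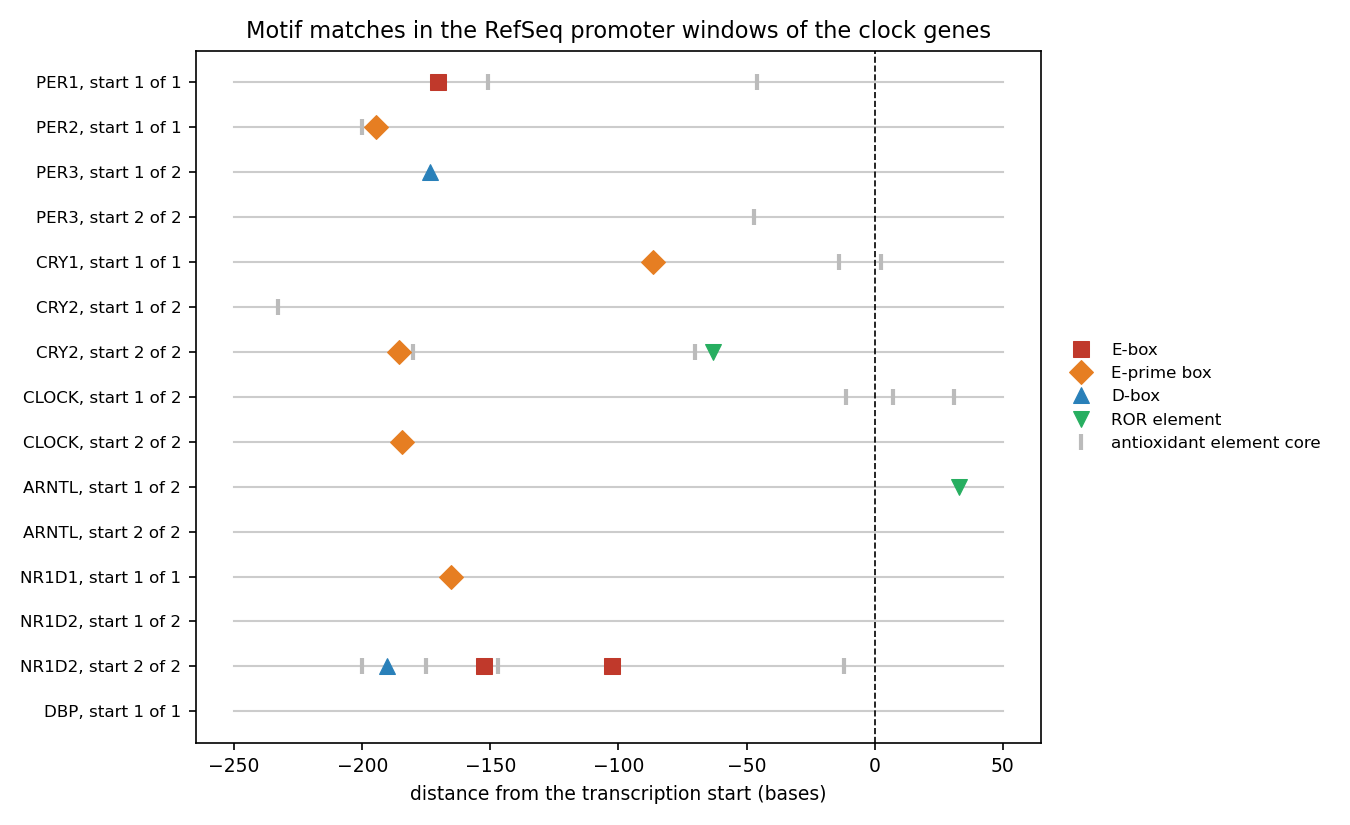
Position of motif matches on either strand in the 15 RefSeq promoter windows of the clock genes. The horizontal axis is the distance from the transcription start in bases and each line is a window. E-boxes (red squares) lie in PER1 and NR1D2, E-prime boxes (orange diamonds) in PER2, CRY1, CRY2, CLOCK and NR1D1, and all of these lie before the start.

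Of 11 partner genes of the clock, 10 were tested, of which 2 were lower, 1 was higher and 7 did not pass, with a median log2 fold change of -0.11. These counts are near the 14% lower and 12.7% higher of all tested genes. The clock genes, this list and the lists below were chosen with earlier results of these data known. Their counts are therefore no test against these shares. TEF, a D-box activator related to DBP, had 285, 315 and 250 reads after knockdown, against 370, 458 and 390 reads in controls, and was lower (log2 fold change -0.49, SE 0.0972, edgeR adjusted p = 0.0004). ARNTL2, a paralog of ARNTL that also pairs with CLOCK, had 3992, 4210 and 3948 reads after knockdown, against 4561, 5059 and 5126 reads in controls, and was lower (log2 fold change -0.25, SE 0.0445, edgeR adjusted p = 0.000115). TIMELESS, which acts mainly at replication forks in mammals, had 4575, 4481 and 4239 reads after knockdown, against 3628, 3975 and 4108 reads in controls, and was higher (log2 fold change 0.21, SE 0.0443, edgeR adjusted p = 0.000819). RORB had at most 2 reads in a library and was not tested. The others (NPAS2, RORA, BHLHE40, BHLHE41, NFIL3, HLF and CIART) did not pass.

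Of 15 genes whose products modify or degrade clock proteins or tie the loop to metabolism, 14 were tested, of which 5 were lower, 1 was higher and 8 did not pass (median log2 fold change -0.05), beside 14% lower and 12.7% higher of all tested genes. SIRT1, an NAD-dependent deacetylase, averaged 36.5 ± 0.542 CPM after knockdown and 45.8 ± 1.76 CPM in controls (SD, n = 3 each) and was lower (log2 fold change -0.33, edgeR adjusted p = 1.20e-05). NAMPT, the enzyme that supplies NAD, was lower by less (log2 fold change -0.15, edgeR adjusted p = 0.00406). The 2 catalytic subunits of AMP-activated kinase moved in opposite directions. PRKAA1 had a log2 fold change of -0.18 (edgeR adjusted p = 0.00329), and PRKAA2 one of 0.29 (edgeR adjusted p = 0.00146). CSNK2A1 and CSNK2B, subunits of casein kinase 2, fell by 0.13 and 0.19 on the log2 scale (edgeR adjusted p = 0.0293 and 0.0105). The call of CSNK2A1 was lost in 6 of 15 alternatives (adjusted p = 0.0539 to 0.144), among them without any 1 of the siNFE2L3 libraries and without siControl replicate 1. That of CSNK2B was lost without siControl replicate 2 (adjusted p = 0.0732), and CSNK2B shares exon bases with XXbac-BPG32J3.22, GPANK1 and LY6G5B and is uncertain. The casein kinase 1 genes CSNK1D and CSNK1E, which set PER stability, did not pass.

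Since PER1 is a direct glucocorticoid target, the receptor and 6 of its other targets were read beside it. This list was also chosen with earlier results of these data known, so its counts are no test against the shares of all genes. Of these 7 genes 6 were tested, of which 4 were lower (the receptor among them), 1 was higher and 1 did not pass. Their median log2 fold change was -0.46, beside the same 14% lower and 12.7% higher of all tested genes. NR3C1, the receptor, averaged 54.8 ± 0.486 CPM after knockdown and 81.5 ± 3.89 CPM in controls (SD, n = 3 each), a log2 fold change of -0.57 (edgeR adjusted p = 8.09e-10). SGK1 (-0.90), KLF9 (-0.59) and TSC22D3 (-0.35) were lower on the log2 scale (edgeR adjusted p = 2.11e-06, 4.26e-09 and 0.000763). FKBP5 was higher by 0.13 (edgeR adjusted p = 0.0251), a call lost in 4 of 15 alternatives (adjusted p = 0.0503 to 0.12), among them without siNFE2L3 replicate 1 or 3 or siControl replicate 3, and DUSP1 did not pass. The call of TSC22D3 was lost with DESeq2 (adjusted p = 0.0587). ZBTB16, another target, had at most 3 reads in a library and was not tested. These values stand beside that of PER1, and their part in it was not tested.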

How the data were processed

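RNA-seq of 3 siNFE2L3 and 3 siControl libraries of 786-O cells was analysed. The authors' steps were trimming (Trimmomatic 0.36), collapsing of molecular identifiers, mapping to the Ensembl release 87 genome on GRCh38 (STAR 2.5.3a) and counting in exons (featureCounts, Subread 1.5.1), as given in the submitters' processing notes and the study's methods. The strand setting is not stated there. Raw counts, exon coordinates and exon lengths per gene were deposited. The authors used edgeR 3.12.1.

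The re-analysis used R 4.3.3 and edgeR 4.0.16 for CPM and RPKM (on TMM-adjusted library sizes) and tests (filterByExpr with a minimum count of 10, quasi-likelihood test of all 19916 kept genes, no replicate block, Benjamini-Hochberg adjustment over all of them). Standard errors were obtained as the log2 fold change over the root of F. The script was tested on simulated data. Alternatives used limma 3.58.1, DESeq2 1.42.0, other scalings and filters, halved counts, a replicate block and leaving out each library. Of counts above 0 and under 30, 67.6% to 69.9% were even, so both mates of a pair may have been counted. Promoter sequences are from RefSeq (GRCh38.p14), where all 10 genes matched, ARNTL as BMAL1. Motifs were searched with Python 3.11.15.

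The text names all 10 clock genes, NFE2L3, genes sharing exon bases with them, and of each list those with an adjusted p under 0.05, up to 6. Of the genes in the lists, 1 is not reported here and stayed out of their counts. Genes that did not pass are also named in places, and pairs for read ratios, the E-prime box and the genes called only under alternatives were chosen after values were seen. The members and lists were chosen with earlier results of these data known.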

Additional observations from a re-analysis of the deposited data

How the results depend on the processing

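The 6 clock genes called lower, and no clock gene called higher, stayed the same in number in all 15 alternatives at an adjusted p under 0.05, and each of the 6 kept its call in all 15. With an unadjusted p under 0.05 and a fold of at least 2, 0 clock genes were lower. The largest adjusted p of the 6 over the alternatives was 0.00896, for NR1D2. The replicate numbers did not pair the libraries (r of same-numbered deviations -0.00898, -0.0818 and -0.0303 over 15482 genes). With the replicate block, 6 clock genes were lower and 0 higher, the calls over all genes came to 2504 lower and 2278 higher, against 2783 and 2537 without the block, and CSNK2A1 was no longer called (adjusted p = 0.0619). Estimates near 0 changed sign when a library was left out. With a library left out, the log2 fold change of ARNTL ran from -0.0697 to 0.0078, above 0 without siControl replicate 3. That of DBP ran from -0.10 to 0.20, below 0 without siNFE2L3 replicate 1 (-0.08), siNFE2L3 replicate 2 (-0.10), siControl replicate 2 (-0.07) or siControl replicate 3 (-0.04). Among regulators, 2 genes were higher in place of 1 with upper quartile scaling, DESeq2, at least 10 counts in every library or halved counts, where CSNK1D was added (adjusted p = 0.0251 to 0.0465), and 1 to 2 with a library left out, where GSK3B was added without siControl replicate 1 (adjusted p = 0.0242). Among glucocorticoid targets, 0 genes were higher in place of 1 with no filter, and 0 to 1 with a library left out: FKBP5 lost its call without siNFE2L3 replicate 1 or 3 or siControl replicate 3. The causes were not tested. Counting E-prime boxes with E-boxes, an alternative added after seeing the sequences, gave 7 clock genes with a match in place of 2, against 14.5% of all genes in place of 8.78%. Ranking by CPM without exon length moved most clock genes, and only PER3 and DBP kept their ranks. CLOCK went from rank 4 to rank 1, above CRY1, and NR1D1 from rank 6 to rank 9. The 29 to 51 reads of DBP gave it the widest interval of the 10 clock genes.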
